A study of Homo sapiens with 20 samples.

Results

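The SPI1 locus on chromosome 11 encodes PU.1, the ETS-family transcription factor that was knocked down in this experiment. RUNX1 binding at the locus was described from 9 peaks of the 26642 in the RUNX1 ChIP-seq count table, chosen as all peaks within 50 kb of the RefSeq span of SPI1 (gene ID 6688). That span runs from 47354860 to 47378547 on chromosome 11 of GRCh38 (23688 bp), and the window from 47304860 to 47428547. Chromatin came from THP-1, a cell line established from a human acute monocytic leukemia, in which a cassette expressed a scramble shRNA in control cells and an shRNA directed at PU.1 in knockdown cells. Both cassettes were induced by doxycycline in the medium, so the controls had received the drug as well. The 12 RUNX1 libraries comprised 6 controls and 6 knockdowns in 2 batches, with 3 controls and 2 knockdowns in batch 1 and 3 controls and 4 knockdowns in batch 2. The replicates were separate immunoprecipitations and library preparations of a cell line, and nothing in the sources used here says that they came from separate cultures, so p-values measure the spread between libraries, which may be technical. Whether each line was 1 clone was not given. The 8 IgG samples were not analysed here. The assay measures neither the PU.1 level nor marker gene expression, so these data do not check the knockdown or the identity of the cells.

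Reads in peaks ranged from 630247 to 1199004 in control libraries and from 938745 to 1719840 in knockdown libraries, and raw counts at the 9 peaks from 5 to 126 per library. All levels below are normalized counts, the raw count divided by the DESeq2 size factor of the library. Fold changes are on the log2 scale, knockdown over control, with their standard error (SE). A peak was called lower or higher at a DESeq2 adjusted p under 0.05, adjusted over all 26642 peaks, together with a fold change over 1.1. The peaks had been called on these same libraries, and the locus was selected on earlier values of the same contrast, the knockdown over control counts at its peaks, while its members were taken by position alone. The counts of calls, the fold changes and the adjusted p-values therefore describe the locus and are not independent evidence about it. In bulk chromatin, fewer cells with RUNX1 at a site and less RUNX1 per cell cannot be told apart.

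PU.1 directs the development of monocytes, macrophages and B cells, and its dose matters for lineage choice. Its gene is controlled by the promoter and by upstream enhancers, the best known of which is the upstream regulatory element (URE). The URE is known to be bound by RUNX1 and by PU.1 itself, which forms an autoregulatory loop. RUNX1, the DNA-binding subunit of core-binding factor, often occupies myeloid enhancers next to PU.1. No peak was assigned to the URE here, because its coordinates were not among the sources used.

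The peaks fell into 3 positional groups. SPI1 is read from the reverse strand, so that upstream lies at higher coordinates. Within the gene lay 4 peaks, at chr11:47359229-47360476 (body 1), chr11:47360928-47361792 (body 2), chr11:47373793-47374384 (body 3) and chr11:47376292-47377218 (body 4). Body 4 was the closest to the upstream end of the gene, at 1329 bp inside it. Upstream of SPI1, 3 peaks lay side by side within 4780 bp, at chr11:47390876-47391526 (upstream 1), chr11:47392754-47393915 (upstream 2) and chr11:47394289-47395655 (upstream 3). They began 12329, 14207 and 15742 bp beyond the SPI1 span, were separated by gaps of 1227 and 373 bp, and all overlapped the long non-coding RNA gene SLC39A13-AS1. The remaining 2 peaks covered starts of neighboring genes. One, at chr11:47407181-47408675, overlapped the start of SLC39A13, which encodes the zinc transporter ZIP13, and also SLC39A13-AS1. The other, at chr11:47426035-47426763, overlapped the start of PSMC3, which encodes an ATPase subunit of the proteasome regulatory particle. No peak overlapped MYBPC3, a cardiac myosin-binding protein gene, or the portion of MADD within the window.

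**Figure D1:**
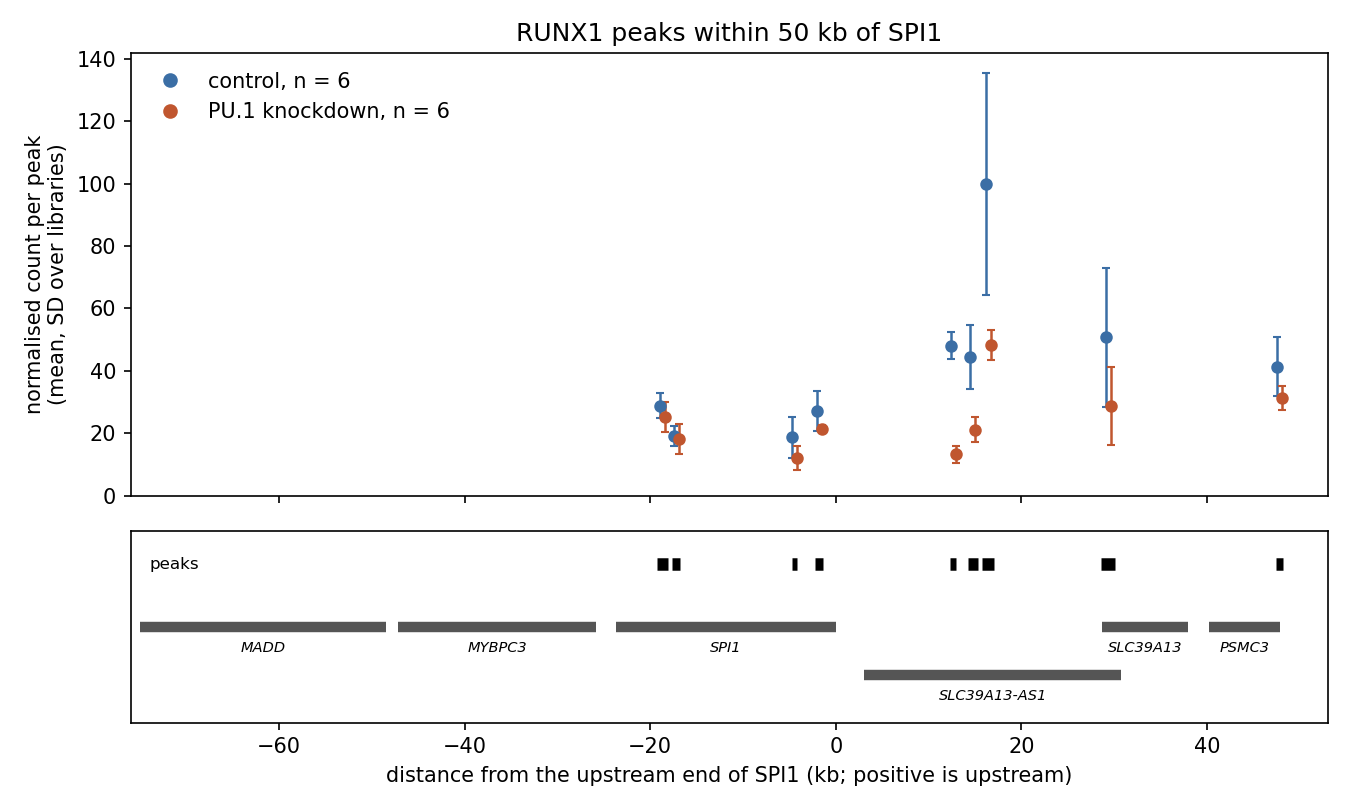
RUNX1 peaks within 50 kb of SPI1. Upper panel, mean normalized count per peak (points) with the SD over 6 control (blue) and 6 PU.1 knockdown (orange) libraries against the distance from the upstream end of SPI1 in kb. Lower panel, extents of peaks and genes. The 3 upstream peaks had control means of 48.0, 44.5 and 99.9 and knockdown means of 13.2, 21.2 and 48.4, while the 4 peaks within the gene lay at or below 28.9 in both groups.

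In control cells upstream 1 and upstream 3 were the densest peaks of the locus, followed by the PSMC3 start. Per kb of peak, upstream 1 and upstream 3 held 73.8 and 73.1 normalized counts, at the 93.7 and 93.5 percentile of all 26642 peaks. The 4 peaks within SPI1 held 22.0 to 31.5 per kb, at percentiles from 16.4 to 42.7. The PSMC3 start held 56.8, upstream 2 held 38.3 and the SLC39A13 start held 34.0 per kb. After knockdown, upstream 1 and upstream 2 held 20.3 and 18.2 per kb, next to 20.3 to 23.0 per kb at the peaks within the gene, and upstream 3 held 35.4 per kb.

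RefSeq promoter sequence (GRCh38.p14, the 250 bases before a start) was at hand for both neighboring genes, with 2 entries for SLC39A13. The stretches that lie wholly within a peak are shown. The entry for the first SLC39A13 start (chr11:47407026-47407275) had 95 of its 250 bases within the peak and is not shown. In the spellings given below, it held 0 ETS cores, 0 RUNX cores and 0 PU box cores. No promoter entry was matched for SPI1. Capitals mark GGAAGT or its reverse complement ACTTCC, named the ETS core here. PU.1 and its relatives recognize this kind of core. Shorter GGAA or TTCC matches occur in both stretches and were neither marked nor counted. The first stretch is the second annotated start of SLC39A13, at chr11:47408340-47408589 on the forward strand, and the second is the start of PSMC3, at chr11:47426440-47426689 on the reverse strand, each written 5′ to 3′.
SLC39A13: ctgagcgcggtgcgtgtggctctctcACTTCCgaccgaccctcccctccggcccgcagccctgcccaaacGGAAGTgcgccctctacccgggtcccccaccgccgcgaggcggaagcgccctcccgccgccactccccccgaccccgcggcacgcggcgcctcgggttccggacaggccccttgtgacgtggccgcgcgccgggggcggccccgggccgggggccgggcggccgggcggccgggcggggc
PSMC3: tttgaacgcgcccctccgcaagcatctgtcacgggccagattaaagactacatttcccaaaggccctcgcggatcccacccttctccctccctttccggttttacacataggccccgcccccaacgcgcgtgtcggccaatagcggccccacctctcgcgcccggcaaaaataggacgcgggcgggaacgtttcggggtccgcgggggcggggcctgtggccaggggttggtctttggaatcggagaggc
The SLC39A13 stretch shown held 2 ETS cores in the spelling GGAAGT or ACTTCC, and the PSMC3 stretch 0. Neither held the RUNX core TGTGGT or the PU box core GAGGAA on either strand. Among 35116 RefSeq promoters of this length, 19.5% held the ETS core, 11% the RUNX core and 23.6% the PU box core. These matches describe letters within the window and were not tied to binding.

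RUNX1 binding fell most at the upstream peaks. Over all libraries 4 of the 9 peaks were called lower in knockdown cells (44.4%) and 0 higher, where 20.7% of all peaks were called lower and 21.3% higher, and where 36.2% of the 737 other chromosome 11 peaks below 110 Mb were called lower and 13.7% higher. The called peaks were the 3 upstream peaks and the start of SLC39A13, and all 4 overlapped SLC39A13-AS1. None of the 4 peaks within SPI1 was called. The edgeR quasi-likelihood test also called 4 of the 9 peaks lower, where it called 22.9% of all peaks lower. All 9 fold changes were below 0 with the main size factors.

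Upstream 1 showed the largest loss of the locus. Control libraries ranged from 41.9 to 54.2 (median 48.2) and knockdown libraries from 8.22 to 15.4 (median 14.2). The groups were thus far apart, with every knockdown library below every control library. The mean fell from 48.0 ± 4.27 to 13.2 ± 2.74 (SD, n = 6 each), a 3.66-fold lower level. The log2 fold change was -1.87 ± 0.22 (adjusted p 5.2e-16, DESeq2), lower than at all but 28 of the 737 other chromosome 11 peaks and all but 481 of all peaks.

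Upstream 2 lost about as much as upstream 3 on the log scale. Upstream 2 had control levels from 32.7 to 59.0 (median 45.8) and knockdown levels from 17.7 to 27 (median 19.5), again without overlap. Its mean fell from 44.5 ± 10.3 to 21.2 ± 4.10, with a log2 change of -0.98 ± 0.20 (adjusted p 8.9e-06, DESeq2). Upstream 3, the peak with most counts in the window, ranged from 57.9 to 159.8 in controls (median 91.8) and from 43.9 to 55.9 in knockdowns (median 47.0). The controls were widely spread, but the highest knockdown library stayed below the lowest control library. The mean of upstream 3 fell from 99.9 ± 35.7 to 48.4 ± 4.83, with a log2 change of -0.97 ± 0.17 (adjusted p 1.9e-07, DESeq2). For these peaks the level was 1.97-fold and 1.96-fold lower.

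**Figure D2:**
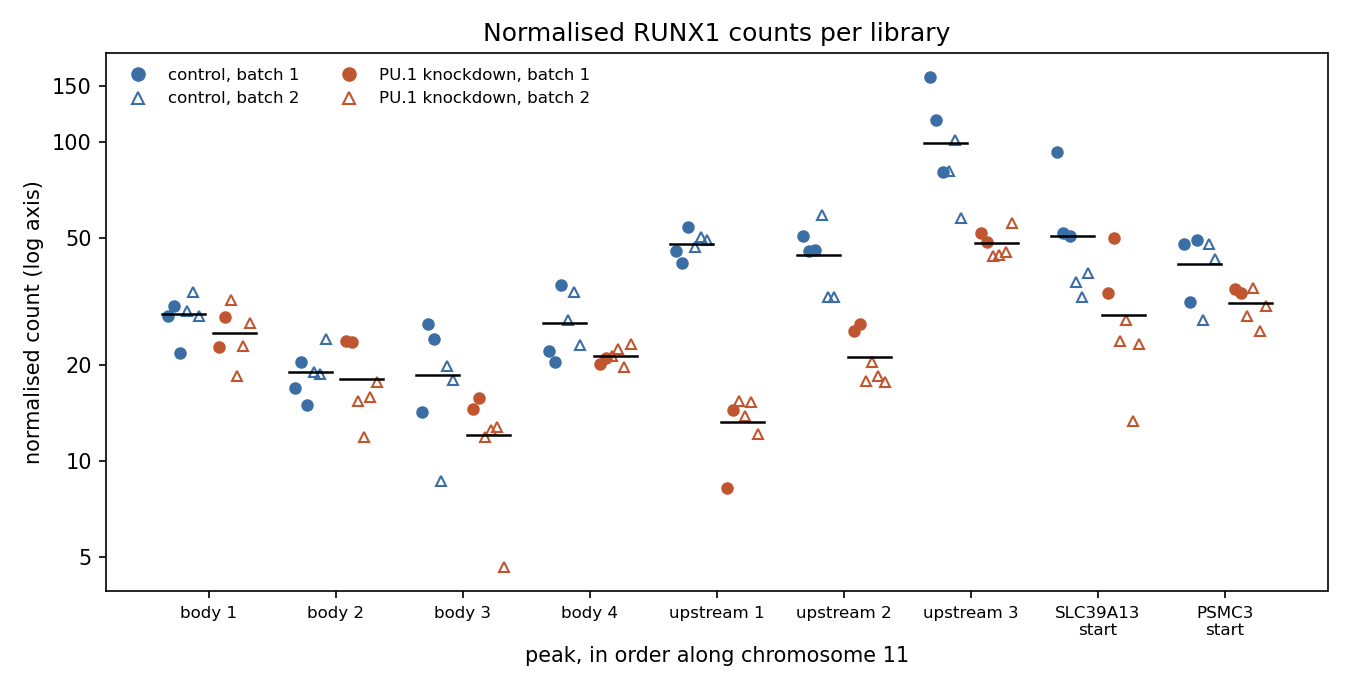
Normalized RUNX1 count of each of the 9 peaks in each library, control (blue) and PU.1 knockdown (orange). Every knockdown library lay below every control library at the 3 upstream peaks, and the groups overlapped at the other 6 peaks.

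The 4 peaks within SPI1 differed less between the groups, and their libraries overlapped. Body 1 ranged from 21.9 to 34.0 in controls (median 29.0) and from 18.5 to 32.1 in knockdowns (median 25), with means of 28.9 ± 3.98 and 25.3 ± 4.81 and a log2 change of -0.22 ± 0.22 (adjusted p 0.438, DESeq2). Body 2 ranged from 15.0 to 24.2 (median 18.9) and from 11.9 to 23.7 (median 16.8), with means of 19.1 ± 3.17 and 18.1 ± 4.77 and a log2 change of -0.06 ± 0.26 (adjusted p 0.877, DESeq2). Both peaks lie in the downstream stretch of the gene, and neither difference passed the test. Body 3 ranged from 8.67 to 27 in controls (median 18.9) and from 4.66 to 15.8 in knockdowns (median 12.7), with means of 18.7 ± 6.65 and 12 ± 3.90 and a log2 change of -0.57 ± 0.29 (adjusted p 0.106, DESeq2). Body 4 ranged from 20.5 to 35.7 (median 25.5) and from 19.8 to 23.3 (median 21.2), with means of 27.2 ± 6.43 and 21.3 ± 1.36 and a log2 change of -0.36 ± 0.23 (adjusted p 0.195, DESeq2). At these counts the standard errors were 0.22 to 0.29, and even the change of -0.57 at body 3 was not called. The test therefore does not show that binding within the gene was unaffected.

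At the starts of the neighboring genes the result was mixed. The SLC39A13 start ranged from 32.8 to 93.6 in controls (median 44.8) and from 13.4 to 50.04 in knockdowns (median 25.7). The groups overlapped over all 12 libraries, but within each batch every knockdown library was below every control library. The mean was 50.8 ± 22.4 in controls and 28.7 ± 12.4 in knockdowns, and the peak was called lower with a log2 change of -0.67 ± 0.21 (adjusted p 0.00505, DESeq2). The PSMC3 start ranged from 27.7 to 49.5 in controls (median 45.6) and from 25.5 to 35.0 in knockdowns (median 32.2). Its groups overlapped, and its mean of 41.4 ± 9.38 against 31.3 ± 3.8 gave a log2 change of -0.39 ± 0.19, which did not pass (adjusted p 0.0914, DESeq2).

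Within batches the order of the peaks was similar, with fewer calls. In batch 1, 2 of the 9 peaks were called lower and 0 higher, namely upstream 1 with -2.0 ± 0.43 (adjusted p 0.000285, DESeq2) and upstream 3 with -1.22 (adjusted p 0.00125, DESeq2). In that batch 6.61% of all peaks and 10.7% of the other chromosome 11 peaks were called lower, and 5.38% and 2.31% higher. In batch 2, 3 peaks were called lower and 0 higher, where 13.1% of all peaks and 19.8% of the other chromosome 11 peaks were called lower and 12.8% and 7.06% higher. The peaks called in batch 2 were upstream 1 with -1.79 ± 0.30 (adjusted p 1.5e-07, DESeq2), upstream 2 with -1.11 (adjusted p 0.00279, DESeq2) and upstream 3 with -0.76 (adjusted p 0.00404, DESeq2). Upstream 2 in batch 1 had a log2 change of -0.83 and missed the threshold (adjusted p 0.111, DESeq2). The SLC39A13 start had -0.60 in batch 1 and -0.73 in batch 2 and was called in neither batch alone (adjusted p 0.276 and 0.0700, DESeq2). The calls in batch 1 rested on its 2 knockdown libraries. With knockdown replicate 1 left out, upstream 1 had -1.67 and upstream 3 had -1.26. With knockdown replicate 2 left out, they had -2.50 and -1.17. Each of these fits had 1 knockdown library, so no calls are given for them. Knockdown libraries were below the control libraries in both batches at 4 of the 9 peaks (13.9% of all peaks, 21.2% of the other chromosome 11 peaks), and over all 12 libraries at 3 (11.4% and 17.8%).

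A test of the difference of the knockdown effect between the batches called 0 of 26642 peaks by DESeq2, with 669 peaks at an unadjusted p under 0.05 and 0 of these at the SPI1 locus. Body 2 came closest, with 0.45 in batch 1 and -0.47 in batch 2.

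The stretch of chromosome 11 in which SPI1 lies was lower in knockdown cells as a whole. The 737 other peaks below 110 Mb had a median log2 fold change of -0.33 (-0.32 in batch 1 and -0.29 in batch 2), against -0.02 over all peaks and -0.04 over the 161 chromosome 11 peaks from 110 Mb on. The downward shift of this stretch was already known when it was chosen for comparison. These medians therefore describe the shift and are not independent evidence of it. The median over the 9 SPI1 peaks was -0.57, over the 4 peaks within the gene -0.29 and over the 3 upstream peaks -0.98. Among the 58 other peaks within 5 Mb the median was -0.25. The peaks within SPI1 were thus shifted about as far as the stretch around them, and the upstream peaks further.

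**Figure D3:**
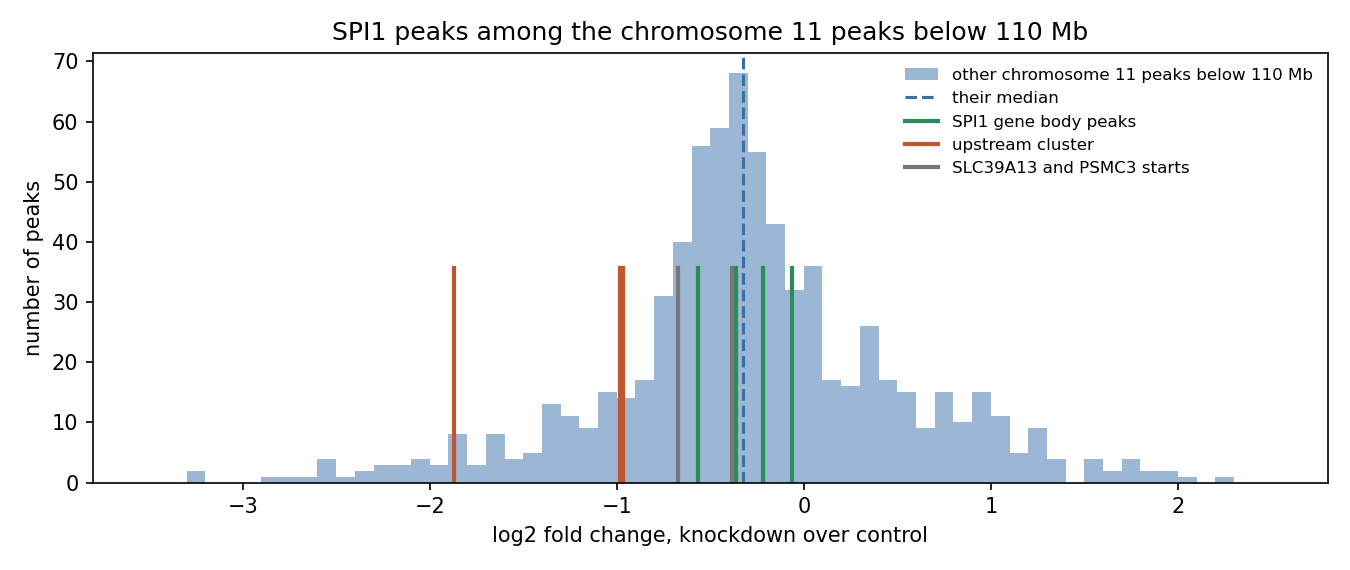
Distribution of log2 fold changes (knockdown over control) over the other chromosome 11 peaks below 110 Mb, with the 9 SPI1 peaks marked by position. The peaks within the gene had a median of -0.29, close to the -0.33 of the stretch, whereas the upstream peaks had a median of -0.98.

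To set the locus against this stretch, the test was repeated with size factors estimated on those 737 peaks, which moved the median of all peaks from -0.02 to 0.24. On that scale 3 of the 9 peaks were called lower (33.3%) and 0 higher, where 19.3% of the 737 peaks were called lower and 21.6% higher. The 3 were the upstream peaks. Upstream 1 was 3.05-fold lower, with -1.61 ± 0.22 (adjusted p 4.8e-12, DESeq2), upstream 2 had -0.71 ± 0.20 (adjusted p 0.00157, DESeq2) and upstream 3 had -0.70 ± 0.17 (adjusted p 0.000218, DESeq2). The SLC39A13 start lost its call at -0.40 ± 0.21 (adjusted p 0.113, DESeq2). The 4 peaks within the gene lay between -0.30 and 0.21, with body 1 and body 2 turning positive, and the PSMC3 start at -0.12.

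**Figure D4:**
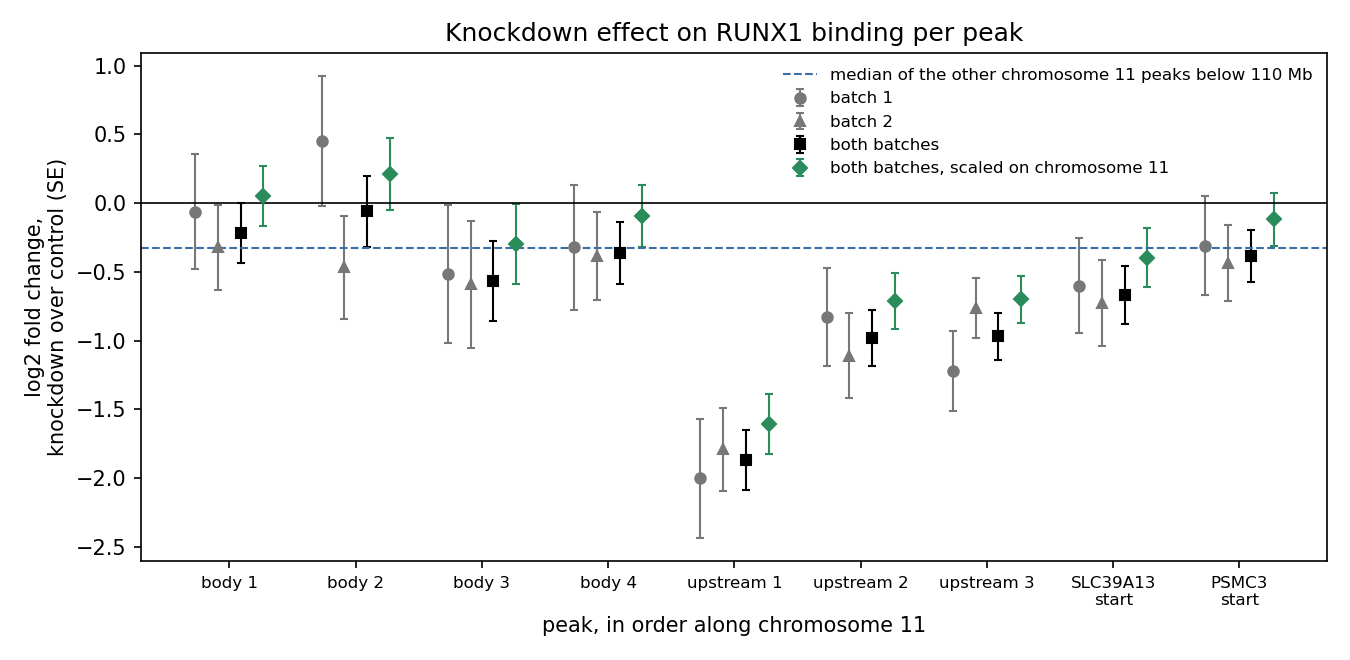
Log2 fold change of each peak in batch 1 (grey circles), batch 2 (grey triangles), both batches (black squares) and with size factors from the other chromosome 11 peaks (green diamonds). Upstream 1 lay between -2.0 and -1.61 in all 4 fits, while body 2 was at 0.45 in batch 1 and -0.47 in batch 2.

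RUNX1 reads were divided differently among the peaks of the locus in the 2 groups. The 3 upstream peaks summed to 192.4 ± 37.8 normalized counts in controls (140.1 to 256.0) and 82.8 ± 5.21 in knockdowns (77.2 to 90.2). The 4 peaks within SPI1 summed to 93.8 ± 9.15 (81.9 to 106.7) and 76.7 ± 8.46 (65.4 to 88.9). The upstream sums did not overlap between the groups, and the sums within the gene did. As a share of all reads in the 9 peaks, which does not depend on the size factors, the upstream peaks held 50.6% ± 4.15 in controls (44.3 to 55.7) and 37.9% ± 2.72 in knockdowns (34.3 to 41.8). These sums include the peaks whose loss was already known and were not tested.

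**Figure D5:**
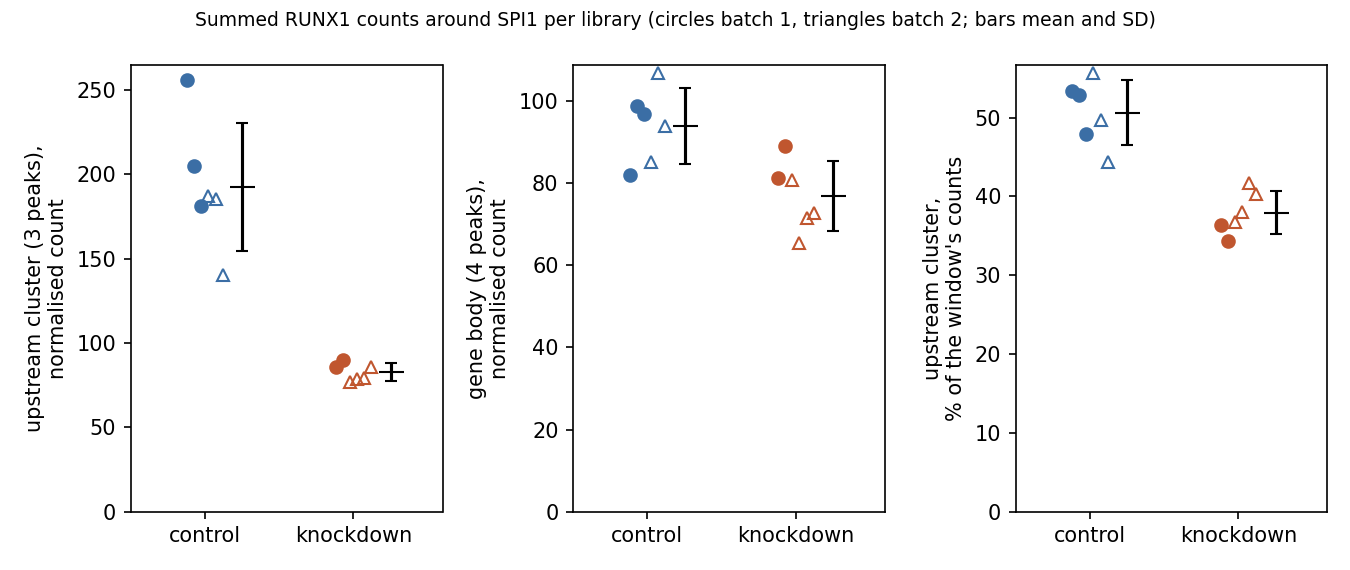
Summed normalized counts of the upstream peaks and of the peaks within SPI1 in each library, with mean and SD. The upstream sum lay between 140.1 and 256.0 in control libraries and between 77.2 and 90.2 in knockdown libraries.

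A ratio within each library showed the same division. The log2 ratio of raw counts, with 1 added to each, of upstream 1 over body 4 ranged from 0.55 to 1.06 in controls (median 0.86) and from -1.20 to -0.36 in knockdowns (median -0.60). In every control library upstream 1 held more reads than body 4, and in every knockdown library fewer. The difference adjusted for batch was -1.51, with -1.72 in batch 1 and -1.37 in batch 2. Upstream 1 was taken for its known loss, so no p-value is given for this ratio. As a share of the reads in the other chromosome 11 peaks below 110 Mb, the 9 peaks amounted to 1.48% ± 0.171 in controls (1.27 to 1.79) and 1.03% ± 0.122 in knockdowns (0.871 to 1.22).

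The edge of the window set which neighbors were counted. The PSMC3 start lay just inside, at 47488 bp from SPI1, and the nearest peak outside lay at 82351 bp on the downstream side, over MADD, with a log2 change of 0.60 (adjusted p 0.168, DESeq2). Further out, a peak at 84803 bp over NR1H3 and MADD had -0.40 (adjusted p 0.0149, DESeq2), and one at 96663 bp within NR1H3 (chr11:47257278-47258197) was called higher. NR1H3 encodes the lipid-sensing nuclear receptor LXRα. That peak went from a mean of 20.8 to 41.9, with a log2 change of 1.01 (adjusted p 0.000163, DESeq2), opposite in direction to the SPI1 upstream peaks. On the upstream side the next peaks lay at 136036 bp over CELF1 with -0.97 and at 199918 bp over KBTBD4 and NDUFS3 with -1.09, both called lower (adjusted p 0.00085 and 0.00027, DESeq2).

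Loci with several losses and no gain occurred elsewhere on this stretch. Of 99 other genes on chromosome 11 below 110 Mb with at least 5 peaks within 50 kb, 13 had at least 4 peaks called lower and 0 higher, and 22 had at least the share of lower calls of the SPI1 window (4 of 9) and 0 higher. These windows overlapped, and those of FKBP2, LOC114841035 and PPP1R14B gave the same values (8 peaks, 4 lower). The genes therefore stand for fewer separate places than their number. By summed count over the 12 libraries, the 5 genes whose windows followed that of SPI1 most closely, of 9374 genes with at least 3 peaks and none shared, were HPS4, ARID2, RHBDD2, TBC1D4 and FKBP14. Their Pearson r on the log2 scale was 0.990, 0.976, 0.974, 0.970 and 0.969, and 0.943, 0.925, 0.823, 0.799 and 0.862 after the genotype means were removed. Batch means were not removed, so any batch difference that the windows share stays in these values. All windows share libraries and size factors and the groups are separate, so these correlations describe likeness over 12 libraries and carry no test. Peaks called lower were 4 of 6 around HPS4, 3 of 4 around ARID2, 3 of 5 around RHBDD2, 1 of 3 around TBC1D4 and 1 of 3 around FKBP14, with 0 higher at each, where 20.7% of all peaks were called lower. The windows were picked for following the SPI1 sum, which was lower in every knockdown library than in every control library. That choice favors lower calls, so these counts are not a separate result.

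Genes tied to PU.1 by textbook knowledge were counted in the same fit. Of 21 partners and regulators of PU.1, 16 had a peak within 50 kb, and 13 of their 63 peaks were called lower (20.6%) and 10 higher (15.9%), with a median log2 fold change of -0.12. These shares lie near the 20.7% and 21.3% of all peaks. IRF4, IRF8, JUN, GATA1 and SPIC had no peak within 50 kb. Of 12 target genes of PU.1 all had peaks, and 18 of the 45 peaks were called lower (40%) and 6 higher (13.3%), with a median of -0.22. Both lists were written with results of these data known, and no test was made over them.

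Single peaks of these genes, taken as the peak with the smallest adjusted p per gene and shown as examples chosen after the values were seen, moved in both directions. Near CEBPA, which encodes a granulocytic transcription factor, a peak at 29251 bp from the gene fell from 42.9 ± 7.28 to 17.4 ± 4.28 (-1.29 on the log2 scale, adjusted p 3.6e-08, DESeq2). Of the 7 peaks around CEBPA, however, 1 was called lower and 2 higher, with a median log2 change of -0.04. Near MYB, a progenitor transcription factor, a peak fell from 43.4 ± 7.59 to 20.01 ± 8.81 (-1.18, adjusted p 1.2e-06, DESeq2). Of the 5 peaks around MYB, 2 were called lower and 1 higher. Around GATA2, a stem cell and mast cell factor, 1 of 3 peaks was called higher and 0 lower. The called peak, at 17630 bp from the gene, rose from 10.7 ± 3.82 to 22.4 ± 5.28 (0.96, adjusted p 0.00327, DESeq2). The peak taken for RUNX1 itself, overlapping the gene, rose from 60.2 ± 7.50 to 101.7 ± 9.34 (0.78, adjusted p 8.5e-08, DESeq2). Of the 16 peaks around RUNX1, 2 were called lower and 3 higher. Among the targets, the smallest adjusted p belonged to a gain in the window of CSF1R, which encodes the macrophage colony-stimulating factor receptor. This peak, at 46068 bp from the gene, rose from 8.87 ± 2.05 to 33.4 ± 7.67 (1.93, adjusted p 9.0e-10, DESeq2). Of the 2 peaks around CSF1R, 1 was called lower and 1 higher. The peaks taken for CTSS, a lysosomal protease, and CYBB, a subunit of the phagocyte NADPH oxidase, also rose (0.85 and 0.78, adjusted p 8.9e-05 and 4.3e-05, DESeq2). They lay 4914 and 32926 bp from the genes, and each gene also had 1 peak called lower. A peak at 19430 bp from ITGAM, which encodes the integrin subunit CD11b, fell from 18.4 ± 5.05 to 4.53 ± 1.05 (-2.06, adjusted p 2.8e-07, DESeq2). Of the 5 peaks around ITGAM, however, 1 was called lower and 2 higher, with a median log2 change of 0.33. A peak at 11946 bp from BTK, a kinase of B cell and myeloid signaling, fell from 23.0 ± 7.26 to 6.61 ± 2.07 (-1.85, adjusted p 9.1e-08, DESeq2), about as far as SPI1 upstream 1 with -1.87. The peaks taken for CSF2RA, NCF1 and MPO also fell (-1.54, -1.45 and -1.23). Those taken for TLR4, FCGR1A, CSF3R and CD14 fell less (-0.51, -0.48, -0.39 and -0.38). Among the targets, only the peaks taken for CSF1R, CTSS and CYBB rose.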

How the data were processed

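The authors used Bowtie2 for alignment, discarded duplicate reads and those off the primary chromosomes, called MACS2 peaks by condition and batch, kept those reproducible between batches, merged them over conditions and counted reads per peak with featureCounts. The deposited values were raw counts, with no normalization. The processing notes list GRCm38 and GRCh38, and the positions match GRCh38. The deposited column of peak lengths served only to express counts per kb of peak. Peaks within 50 kb of the RefSeq span of SPI1 were taken. DESeq2 1.42.0 (R 4.3.3; median-of-ratios size factors, batch and genotype as terms, Wald test, Benjamini-Hochberg over all 26642 peaks) was the main test, and edgeR 4.0.16 (quasi-likelihood) an alternative. The DESeq2 fit was repeated within each batch, with a genotype by batch term, and with size factors from the 737 other chromosome 11 peaks below 110 Mb. The script was tested on simulated data. All 9 peaks are given. Correlated genes were the 5 with the highest Pearson r of summed counts. Members, lists and tests were chosen with earlier results of these data known. Depth was 630247 to 1719840 reads in peaks per library, and at counts of 5 to 126 per peak counting error limits precision. Alternatives covered size factors, filters, thresholds, windows and each library left out.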

Additional observations from a re-analysis of the deposited data

Results flagged for a closer look

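Over 15 measures of the locus in 30 groups of 6 libraries, 2 groups held a library far from the others by Dixon's criterion at the 95% level, where chance gives about 1 in 20 groups (1.5 here). At body 3, knockdown replicate 6 was the lowest with 4.66 normalized counts, while the other knockdown libraries ranged from 11.9 to 15.8. At the SLC39A13 start, control replicate 1 was the highest with 93.6, while the other controls ranged from 32.8 to 52.1. Without control replicate 1 the log2 change at the SLC39A13 start was -0.53 (adjusted p 0.0345, DESeq2), and without knockdown replicate 6 body 3 had -0.45 (adjusted p 0.220, DESeq2), so the first stayed called and the second uncalled.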

How the results depend on the processing

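Among the recomputed counts of calls and ratios, 120 stayed close to the main value (counts within 1.5 times) and 4 did not. The count of peaks called lower was 4 with edgeR, TMM size factors, in-peak totals or no batch covariate, and 1 with a fold change over 2 (upstream 1). Of all 26642 peaks these settings called 6108, 5399, 5294, 5727 and 2185 lower, in that order. Requiring at least 10 counts in every library removed upstream 1 and body 3. Of the 7 peaks left, 3 were called lower, where 2866 of the 18255 peaks tested were. Windows of 25 kb and 100 kb gave 3 of 7 and 5 of 12 peaks lower, and the wider window 1 higher, at NR1H3. Leaving out 1 library gave 4 to 5 lower in the fit of all libraries, 2 to 3 in batch 2 and 3 relative to chromosome 11. In batch 1 it gave 2 for each control left out. Leaving out a knockdown library there left 1 in that group, so calls are not given. In the fit of all libraries with 1 left out, the log2 fold change of upstream 1 ranged from -1.94 to -1.76. Its ratio to body 4 ranged from -1.60 to -1.37. In batch 2 upstream 2 lost its call without control replicate 4 (adjusted p 0.0961, DESeq2) and upstream 3 without control replicate 5 (0.154). The PSMC3 start was called without control replicate 2 (adjusted p 0.0422, DESeq2), and edgeR alone called upstream 2 in batch 1 and the SLC39A13 start in batch 2 (adjusted p 0.0132 and 0.0165). Direction turned only for peaks within the gene near 0. Body 2 had 0.0076 with at least 10 counts in every library, which left 7 of the 9 peaks, and -0.16 to 0.082 with 1 library left out (0.082 without control replicate 6, 0.027 without knockdown replicate 4). Body 1 had -0.23 to 0.090 in batch 1 (0.047 without control replicate 2, 0.090 without knockdown replicate 1) and -0.029 to 0.14 relative to chromosome 11 (-0.015 without control replicate 3, -0.029 without knockdown replicate 2). Body 4 had -0.17 to 0.0027 relative to chromosome 11 (0.0027 without control replicate 3). The causes were not tested. Replicate numbers recur in both groups, but residuals of same-numbered libraries correlated at -0.10 to 0.012 and number 3 lies in different batches, so the numbers do not pair libraries. A fit with the replicate block called 4 lower and 0 higher, where it called 4656 of all 26642 peaks lower. Relative to chromosome 11 it called 3 lower and 0 higher, where it called 2702 of all peaks lower. The ratio in that setting was -1.50. Counts as low as 5 per peak leave small changes at the peaks within SPI1 undetectable.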
